A study of Rattus norvegicus with 12 samples.

Results

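Glutathione S-transferases join the tripeptide glutathione to reactive, electron-poor compounds, which makes them soluble and ready for export from the cell. The soluble enzymes fall into classes named by Greek letters, work as pairs of subunits, and are among the abundant cytosolic proteins of hepatocytes, where the alpha and mu classes predominate in the adult rat. Many of their genes are induced when the transcription factor NRF2, freed from its inhibitor KEAP1, binds antioxidant response elements, and the nuclear receptors CAR and PXR can induce some of them too.

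Here 9 rat genes of the family were followed, of 14217 genes named on the array: the alpha-class genes Gsta2, Gsta3, Gsta4 and Gsta5, the mu-class genes Gstm1, Gstm2, Gstm3 and Gstm4, and the pi-class gene Gstp1. They were found through probe sets, each a handful of short oligonucleotides for a transcript, whose single gene symbol in the platform's annotation is one of these names. Of the 9 genes, 7 had 1 such probe set each. Among these, 5 varied between arrays (Gsta3, Gsta4, Gstm1, Gstm2 and Gstm4), while Gstm3 and Gstp1 had a standard deviation (SD) no larger than 0.01 log2 across the arrays, which counts as unmeasured here. Gsta2 and Gsta5 share 1 probe set, so no value can be given to either gene alone. Glutathione S-transferase names have moved between genes over the years: the gene table lists Gsta5 and Yc2 as older names of Gsta3, and Gsta3 as an older name of Gsta1, so the names used here follow the gene identifiers.

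RNA came from whole livers of 12 male Sprague Dawley rats aged 9 weeks, which had eaten one of 3 purified AIN-93G diets for 28 days. The control diet held no wakame, an edible brown seaweed, the low diet held 0.1% wakame powder and the high diet held 1%. Each diet had 4 rats and 4 arrays, numbered as in the labels. Each diet was given to 6 rats, caged in groups of 3, and which cage an arrayed rat came from is not given here. Effects of cage and of diet cannot be told apart.

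The deposited log2 values vary between arrays for 3240 of 31042 probe sets, and the other 27802 are flat. Over the varying ones, arrays of one diet correlated at 0.911 to 0.961. All 7 hepatocyte markers on the array lay above the table's median of 6.59 log2, up to 14.61 for Alb, the albumin gene. Of these 7, 4 varied, and Alb was among the flat ones. The mean of all 7 spanned 12.69 to 12.96 in high livers, 12.95 to 13.20 in low livers and 12.88 to 13.06 in control livers. Flat markers add the same amount to such a mean on every array. The part of hepatocyte content in the diet differences was not tested. Of the biliary markers 0 of 5 varied and 2 lay above that median, and of the lymphocyte markers 1 of 5 lay above it. The mean level of the Kupffer cell markers, of which 4 of 5 varied, spanned 8.40 to 8.67 in high livers, 8.39 to 8.79 in low livers and 8.31 to 8.75 in control livers. Of the stellate cell and fibroblast markers 5 of 8 varied. Their mean spanned 7.88 to 8.23, 7.75 to 8.11 and 7.86 to 8.08 in high, low and control livers. In whole liver, fewer cells of a type and less RNA per cell cannot be told apart.

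The promoter windows below, from RefSeq on the rat assembly GRCr8, are shown because they hold the letters of the core antioxidant response element. The motif TGACNNNGC was searched on both strands from 250 bases before to 50 after each annotated start. It was present in 12.1% of 33469 windows and in 3 of the 10 windows of the 9 genes, which were 1 of the 2 starts of Gsta3, Gsta2 and Gstp1. No match says only that these letters are not in a window. Gsta1, which lies beside Gsta3 in the genome and is not among the 9 genes, is shown for comparison. Each sequence runs 5′ to 3′ on the gene's strand, and the capitals mark the motif.
Gsta3, chr9:31154932-31155021, plus strand, motif at -17 to -9 from the start: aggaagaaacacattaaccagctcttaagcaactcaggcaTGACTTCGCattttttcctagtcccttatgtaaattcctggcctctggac
Gsta1, chr9:31216483-31216542, minus strand, motif at 31 to 39: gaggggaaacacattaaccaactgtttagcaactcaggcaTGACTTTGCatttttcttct
Gstp1, chr1:210769717-210769806, minus strand, motif at -61 to -53: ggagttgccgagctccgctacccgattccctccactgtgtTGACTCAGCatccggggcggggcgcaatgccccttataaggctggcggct
Gsta2, chr8:88077043-88077096, minus strand, motif at 37 to 45 on the opposite strand: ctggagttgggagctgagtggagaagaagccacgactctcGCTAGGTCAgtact
Aligned on the motif, the Gsta3 and Gsta1 stretches were equal at 47 of 60 bases. A match is a description of the letters, and binding was not measured.

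Setting the 1% diet against control asks how the larger amount of wakame relates to expression of these genes. Gsta3, the Yc2 subunit known in rats for detoxifying activated aflatoxin, was the member that differed most, and it lay lower in high livers. Gstm1 lay slightly lower, Gsta4 slightly higher, and Gstm2 and Gstm4 differed by less than their spread. No member passed the test: with limma over the 3240 varying probe sets, 0 of 5 had an adjusted p (Benjamini-Hochberg) under 0.05, where 1.67% of all varying probe sets did. At an unadjusted p under 0.05 there were 2 of 5, Gsta3 and Gstm1, against 18.5% of all. Without control 1 there was 1, Gsta3, and 13 of the 3240 probe sets passed after adjustment, in place of 54.

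Gsta3 read 10.23, 6.75, 6.64 and 7.57 log2 in control livers 1 to 4, 5.91, 7.09, 7.62 and 6.35 in low livers, and 5.49, 6.09, 5.55 and 6.03 in high livers. All 4 high livers lay below every control liver, with a gap of 0.55 log2 between the groups, and the low livers overlapped both. Control 1 stood 2.61 log2 above the next array of any diet. Gsta3 averaged 5.79 ± 0.31 in high livers and 7.80 ± 1.67 in control livers (SD, n = 4 each).

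The difference in Gsta3 was -2.01 ± 0.70 log2 (SE, limma, 95% interval -3.57 to -0.45, adjusted p = 0.179), which is a level 4.02-fold lower in high livers. The exact two-sided permutation test of this single gene gave p = 0.0286, the smallest that 4 arrays against 4 allow. High livers lay wholly below control livers in 6.05% of all varying probe sets. Without control 1, the mean of the other 3 control livers was 6.99 ± 0.51 and the difference was -1.20 log2, a 2.29-fold lower level (adjusted p = 0.222). With any other high or control array left out it lay between -2.39 and -1.91, and the unadjusted p stayed under 0.05 in all 8 fits that left out 1 high or control array.

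**Figure D1:**
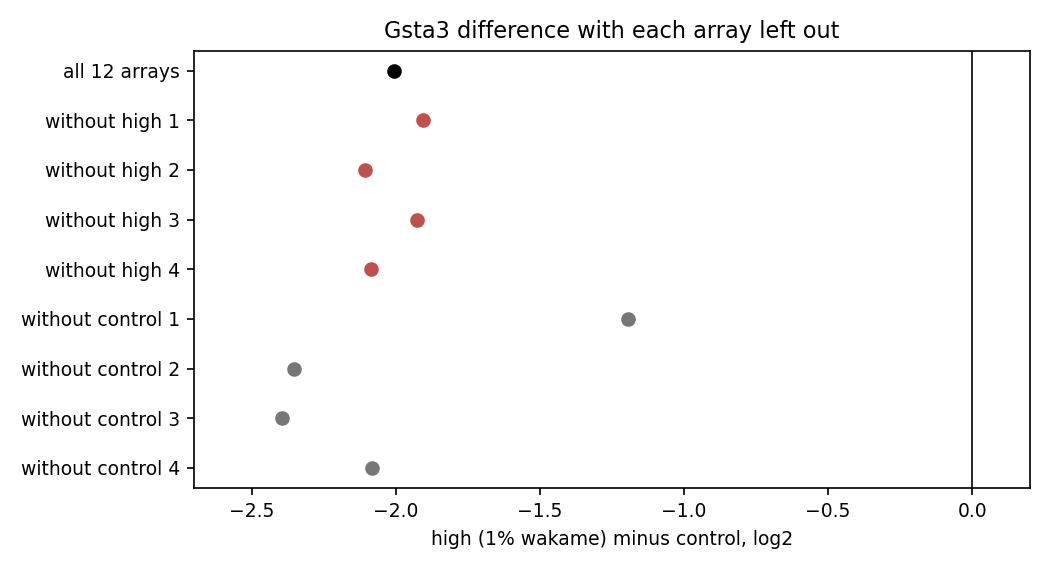
Difference of Gsta3 between high (1% wakame) and control livers, in log2, from the fit of all 12 arrays (black) and with each high array (red) or control array (grey) left out. The difference was -2.01 with all arrays and -1.20 without control 1, and all 9 points lie below 0.

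All 4 high, 2 of 4 low and 0 of 4 control values of Gsta3 lie below the table's median of 6.59 log2. No probe-level background came with the table, so whether and how far these dim values distort the differences was not tested. The 3-prime minus 5-prime signal of Gapdh, which moves with RNA quality and labelling, averaged 1.21 ± 0.16 log2 in high livers and 1.05 ± 0.01 in control livers (SD, n = 4 each). The Gapdh arrays did not separate the diets: high 4 read 1.040, below the control range of 1.041 to 1.073, and the other high arrays lay above it. The same signal of beta-actin averaged 2.38 ± 0.07 in high livers and 2.31 ± 0.13 in control livers, with overlapping arrays, and was not used as a covariate. With the Gapdh signal as a covariate the Gsta3 difference was -1.82 log2 (limma, adjusted p = 0.487).

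The mu-class genes Gstm1, Gstm2, Gstm3 and Gstm4 are neighbours in 1 cluster of the rat genome, and 3 of them were measured. Gstm1, which encodes an abundant mu-class subunit of rat liver, read 12.62, 12.40, 12.53 and 12.62 log2 in control livers 1 to 4, 12.21, 12.13, 12.35 and 12.38 in low livers, and 12.21, 12.43, 12.43 and 12.28 in high livers. The low livers all lay below every control liver, while 2 of the 4 high livers lay below every control liver and the other two fell within the control range. Gstm1 averaged 12.34 ± 0.11 in high livers and 12.54 ± 0.10 in control livers (SD, n = 4 each), a difference of -0.20 ± 0.08 log2 (SE, adjusted p = 0.202 with limma, exact permutation p = 0.0857).

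Gstm2, which encodes another mu-class subunit, varied widely between rats of one diet. It read 10.23, 9.31, 9.94 and 10.13 log2 in control livers, 10.44, 8.88, 11.01 and 10.10 in low livers, and 8.90, 10.60, 10.00 and 9.11 in high livers. The 3 diets overlapped throughout, and each wakame diet spanned more than the 0.92 log2 of the control livers, with a range of 2.14 in low and 1.70 in high livers. The high minus control difference of Gstm2 was -0.25 ± 0.48 log2 (SE, n = 4 each, 95% interval -1.31 to 0.81, limma adjusted p = 0.854).

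Gstm4 read from 8.48 to 8.76 log2 in high livers, 8.36 to 8.77 in low livers and 8.45 to 8.89 in control livers. Its high minus control difference was -0.09 ± 0.12 log2 (SE, 95% interval -0.36 to 0.18, limma adjusted p = 0.771). Gstm3 was listed at 6.50 log2 on every array, and a flat value is no evidence that its RNA did not differ.

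Gsta4, the alpha-class enzyme known for clearing hydroxynonenal and other products of lipid peroxidation, lay slightly higher in high livers, within the spread of the arrays. It read 10.65, 10.33, 10.46 and 10.48 log2 in control livers, 10.45, 10.54, 10.50 and 10.85 in low livers, and 10.46, 10.63, 10.70 and 10.72 in high livers. Of the 4 high livers, 2 lay above every control liver and the other two fell within the control range. The high minus control difference of Gsta4 was 0.14 ± 0.10 log2 (SE, n = 4 each, 95% interval -0.08 to 0.37, limma adjusted p = 0.486).

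The probe set shared by Gsta5 and Gsta2 read 12.30, 11.49, 12.66 and 12.47 log2 in control livers, 10.56, 12.24, 12.38 and 12.86 in low livers, and 12.24, 12.51, 13.13 and 13.07 in high livers. Low 1 was the lowest array, and 2 high livers lay above every control liver. Its high minus control difference was 0.51 ± 0.46 log2 (SE, limma adjusted p = 0.590). Gstp1, the pi-class enzyme that is scarce in normal rat hepatocytes and marks preneoplastic foci in rat liver, was listed at 8.27 log2 on every array. Biliary cells also hold it. The mean of the biliary markers was 6.54 log2 on every array, but 0 of 5 varied, so they too count as unmeasured. Such flat values are no evidence on Gstp1 RNA or on the content of biliary cells.

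**Figure D2:**
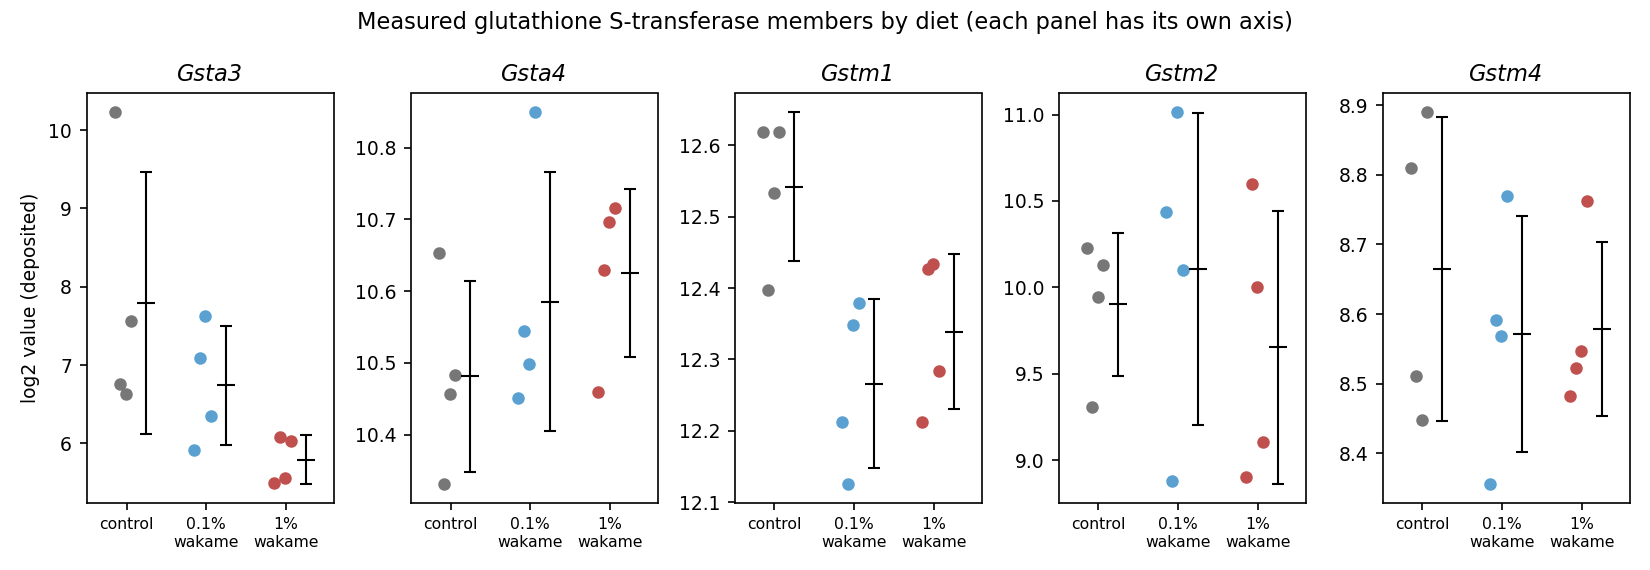
Log2 values of the 5 measured genes on each array (coloured points), with the diet's mean and SD (black), for control, 0.1% wakame and 1% wakame livers, 4 rats per diet; each panel has its own axis. The 1% wakame points of Gsta3 all lie below the control points and those of the other 4 genes overlap them.

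Setting the 0.1% diet against control asks whether the smaller amount shows the same differences. Both wakame diets were set against the same 4 control livers, so the values stand side by side and are no independent repeats. Gstm1 averaged 12.27 ± 0.12 log2 in low livers and 12.54 ± 0.10 in control livers (SD, n = 4 each), and the difference of -0.28 ± 0.08 (SE, 95% interval -0.45 to -0.11, limma adjusted p = 0.202) was a level 1.21-fold lower. Its exact permutation p was 0.0286, the smallest possible, and low livers lay wholly below control livers in 3.36% of all varying probe sets. The difference lay between -0.32 and -0.23 with each low or control array left out in turn, with an unadjusted p under 0.05 in all 8 fits.

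Gsta3 averaged 6.75 ± 0.76 log2 in low livers and 7.80 ± 1.67 in control livers, a difference of -1.05 ± 0.70 (SE, limma adjusted p = 0.636) that was -0.24 without control 1. The low minus control differences of Gsta4, Gstm2 and Gstm4 were 0.10 ± 0.10, 0.21 ± 0.48 and -0.09 ± 0.12 log2 (limma adjusted p from 0.766 to 0.918). Again 0 of 5 members passed, where 0.0617% of all varying probe sets did, and 1 of 5 had an unadjusted p under 0.05, against 11.5% of all. Of the 5, 3 lay lower, where 55.9% of all did. The shared Gsta5 and Gsta2 probe set was at -0.22 ± 0.46 log2.

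Between the 2 wakame diets the high minus low differences were -0.95 ± 0.70 log2 for Gsta3, 0.04 ± 0.10 for Gsta4, 0.07 ± 0.08 for Gstm1, -0.46 ± 0.48 for Gstm2 and 0.01 ± 0.12 for Gstm4 (SE, n = 4 each, limma adjusted p from 0.872 to 0.996). Of these 5, 0 had an unadjusted p under 0.05, against 6.76% of all varying probe sets, and 0 of the 3240 passed after adjustment (limma, 0.0%). The F-test for any difference among the 3 diets gave an adjusted p of 0.350 for Gsta3 and 0.199 for Gstm1, and 0 of 5 members passed it, where 0.185% of all did. The mean of Gsta3 was 7.80, 6.75 and 5.79 log2 in control, low and high livers, and the control mean was 6.99 without control 1. Gstm1 was lowest in low livers, at 12.54, 12.27 and 12.34 in the same order of diets.

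**Figure D3:**
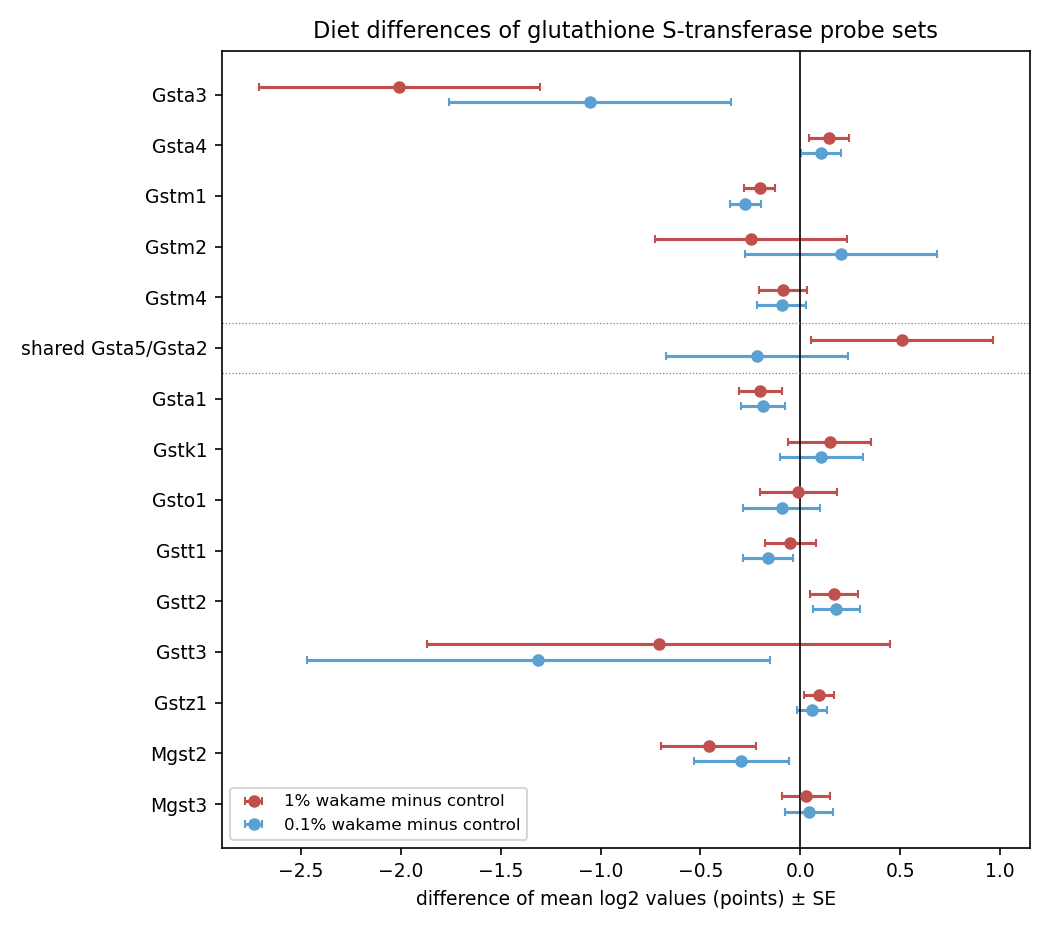
Difference of mean log2 values from control (points) with its standard error (bars) for the 5 measured genes, the probe set shared by Gsta5 and Gsta2 and 9 other glutathione transferases, for 1% wakame (red) and 0.1% wakame (blue). Gsta3, at -2.01 and -1.05, and Gstt3, at -0.71 and -1.31, lie farthest from 0 and have wide bars.

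Over the 5 measured genes the median high minus control difference was -0.20 log2, beside -0.02 over all 3240 varying probe sets, and 4 of 5 lay lower, where 55.1% of all did. The median low minus control difference was -0.09, beside -0.02 over all. The filter on flat values left only 5 genes, so these medians describe them alone and not the family.

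Whether the genes varied together from rat to rat was examined over the 12 arrays for all 10 pairs of measured genes. No pair passed after adjustment over the 10 pairs. The pair with the highest Pearson coefficient was Gsta3 with Gstm1, at r = 0.54 (permutation p = 0.0652, adjusted 0.275) and rho = 0.39 (permutation p = 0.209, adjusted 0.522), with r = 0.37 without control 1 and low 3. Gsta3 with Gstm4 had r = 0.53 (permutation p = 0.0710, adjusted 0.275) and rho = 0.55 (permutation p = 0.0661, adjusted 0.331), with r = 0.48 without the same arrays. Gsta4 with Gstm4 had r = 0.51 (permutation p = 0.0893, adjusted 0.275) and the highest Spearman coefficient, rho = 0.65 (permutation p = 0.0251, adjusted 0.251), with r = 0.31 without low 4 and high 4. In the mu-class cluster, Gstm1 with Gstm2 had r = 0.46 (permutation p = 0.137, adjusted 0.275) and rho = 0.40 (permutation p = 0.203, adjusted 0.522), with r = 0.29 without control 4 and low 2. Gstm1 with Gstm4 had r = 0.48 (permutation p = 0.119, adjusted 0.275) and rho = 0.34 (permutation p = 0.286, adjusted 0.573). Gstm2 with Gstm4 had r = -0.00888 and rho = 0.07. Once the mean of each diet was taken out, r was 0.36 for Gsta3 with Gstm1, 0.52 for Gsta3 with Gstm4, 0.72 for Gsta4 with Gstm4 and 0.82 for Gstm1 with Gstm2. Among the remaining pairs it was 0.65 for Gsta4 with Gstm1 (0.08 before), 0.44 for Gstm1 with Gstm4 and 0.41 for Gsta3 with Gsta4. It was 0.24 for Gsta3 with Gstm2, 0.18 for Gsta4 with Gstm2 and -0.00841 for Gstm2 with Gstm4. No p was computed for these coefficients. With 4 arrays a diet holds too few samples for a coefficient of its own.

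Among other genes, the 5 whose values were most like those of Gsta3, the most variable of the 5, were Slc17a3 (r = 0.96), Bcap29 (r = 0.95), Nhp2, Ephx1 and Rps6 (each r = 0.89), picked as the highest of 2568 named probe sets over 12 arrays, so no p is given. Without control 1 and low 3 these coefficients were 0.83, 0.80, 0.57, 0.65 and 0.81. Slc17a3 is a phosphate and organic anion transporter, Bcap29 a protein of the endoplasmic reticulum, Nhp2 a part of small nucleolar particles, Ephx1 microsomal epoxide hydrolase and Rps6 a ribosomal protein.

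Of 21 other glutathione transferases and related membrane enzymes on the list, 17 were on the array and 9 were measured. With 1% wakame 5 of these lay lower and 4 higher, with a median of -0.01 log2, and 0 passed. Of all varying probe sets 55.1% lay lower and 1.67% passed. Gsta1, the alpha-class neighbour of Gsta3, was at -0.20 ± 0.11 log2, and the microsomal Mgst2 at -0.46 ± 0.24 (SE, limma adjusted p = 0.352 and 0.331). The theta-class Gstt2 was at 0.17 ± 0.12, the mitochondrial and peroxisomal Gstk1 at 0.15 ± 0.21, and Gstz1, of tyrosine breakdown, at 0.09 ± 0.07. Gstt1, Gsto1 and Mgst3 were at -0.05, -0.01 and 0.03 log2. Without control 1 the differences were -0.10 for Gsta1, -0.23 for Mgst2, 0.22 for Gstt2, 0.26 for Gstk1 and 0.06 for Gstz1. They were -0.10 for Gstt1, 0.02 for Mgst3 and 0.14 for Gsto1, whose direction turned.

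Gstt3, of the theta class, had an SD over the 12 arrays of 1.70 log2, against 1.30 for Gsta3, while its range of 4.31 was below the 4.74 of Gsta3. It read 11.79, 8.14, 11.33 and 10.96 log2 in control livers, 7.64, 7.48, 11.07 and 10.79 in low livers, and 7.66, 11.28, 11.10 and 9.35 in high livers. Every diet held low and high values: 4 arrays, namely control 2, low 1, low 2 and high 1, lay between 7.48 and 8.14, and the next value was 9.35. Its high minus control difference was -0.71 ± 1.16 log2 (SE, limma adjusted p = 0.814), and -0.30 without control 1.

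The genes around the transferases were taken from lists written with earlier results of these data known. In glutathione synthesis and recycling, 11 of 16 listed genes were measured. With 1% wakame 7 lay lower with a median of -0.04 log2, 0 passed, and 2 had an unadjusted p under 0.05, where 55.1% and 18.5% of all varying probe sets did. Gclc, the catalytic subunit of the enzyme that limits glutathione synthesis, averaged 9.56 log2 in high livers and 10.35 in control livers, a difference of -0.80 ± 0.30 (SE, limma adjusted p = 0.198) that was -0.45 without control 1. Pgd, which supplies NADPH, was at -0.97 ± 0.31 (adjusted p = 0.146). Gss, of the second step of synthesis, and Ggct, of glutathione turnover, were each at -0.13, and Gss was at -0.06 without control 1.

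In the list of glutathione and thioredoxin peroxidases and reductases, 4 of 12 genes were measured. With 1% wakame all 4 lay lower with a median of -0.25 log2, and 0 passed. Of all varying probe sets 55.1% lay lower, with a median of -0.02, and 1.67% passed. Srxn1, which repairs oxidised peroxiredoxins, was at -0.78 ± 0.24 (SE, limma adjusted p = 0.129), and the median of the list was -0.10 without control 1. Thioredoxin, Txn1, was at -0.20 ± 0.09, thioredoxin reductase, Txnrd1, at -0.31 ± 0.22, and the selenoenzyme Gpx1 at -0.04 ± 0.08. Without control 1 the differences were -0.52 for Srxn1, -0.13 for Txn1, -0.06 for Txnrd1 and -0.02 for Gpx1.

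In the list of the NRF2 system, 9 of 15 genes were measured, 8 lay lower with a median of -0.69 log2, where 55.1% of all did, and 0 passed. The median was -0.44 without control 1, where 7 lay lower, and the count with an unadjusted p under 0.05 was 0 in place of 3 of 9 (18.5% of all with every array). Nfe2l2, which encodes NRF2, read 9.32, 10.04, 10.31 and 9.89 in high livers, against 10.73, 10.31, 10.32 and 10.96 in control livers, a difference of -0.69 ± 0.26 (SE, limma adjusted p = 0.201). The highest high liver and the lowest control liver differed only in the third decimal. Nqo1, a quinone reductase, was at -0.98 ± 0.42, Ephx1 at -0.79 ± 0.35 and Akr7a3, an aldo-keto reductase known in rats for reducing aflatoxin dialdehyde, at -1.76 ± 0.84 (SE, limma adjusted p from 0.251 to 0.290). Without control 1 these differences were -0.72 for Nqo1, -0.44 for Ephx1 and -0.83 for Akr7a3. The Nqo1 difference also rests on high 1, which read 7.51, with the other high livers from 9.19 to 9.53. Median Nqo1 was 9.28 in high and 9.78 in control livers. In the low diet Nqo1 read between 8.00 and 8.10 on all 4 arrays, below every control liver, at -1.82 ± 0.42 (SE, limma adjusted p = 0.190). Low livers lay wholly below control livers in 3.36% of all varying probe sets. Without control 1 this Nqo1 difference was -1.56 (limma adjusted p = 0.348). Of the 9 measured genes, 6 lay lower and 3 higher in low livers, where 55.9% of all varying probe sets lay lower. Aldh1a1, a retinal dehydrogenase, was named here after its values were seen. It averaged 10.08 log2 in low, 9.30 in control and 7.84 in high livers (limma adjusted p = 0.754 for low against control). Control 1 read 11.68, while the other control livers read 7.83, 8.24 and 9.47, below all 4 low livers.

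Of 12 genes of conjugate export and mercapturic acid steps, 7 were measured, 4 lay lower and 3 higher with a median of -0.07 log2, and 0 passed. Of all varying probe sets 55.1% lay lower and 1.67% passed. Acy3, which removes the acetyl group from mercapturic acids, was at 0.82 ± 0.34, the aminopeptidase Anpep at 0.64 ± 0.33, the bile salt importer Slc10a1 at 0.08 ± 0.04 and Acy1 at -0.15 ± 0.24 (SE, limma adjusted p from 0.241 to 0.802). Without control 1 Acy1 was at 0.03, the other way. Of 14 nuclear receptors and liver factors, 9 were measured, and 5 lay lower and 4 higher, where 55.1% of all varying probe sets lay lower. At an unadjusted limma p under 0.05 there were 1 lower and 2 higher, against 18.5% of all in either direction. Only Onecut1 passed, where 1.67% of all did, and it was lower by 3.17 ± 0.54 log2 (SE, limma adjusted p = 0.0268). Without control 1 the Onecut1 difference was -3.27 log2 and no longer passed (adjusted p = 0.0615). Nr1i3, which encodes CAR, was at 1.16 ± 0.41, the P450 reductase Por at 0.52 ± 0.23 and the glucocorticoid receptor Nr3c1 at -0.27 ± 0.12 (SE, limma adjusted p from 0.175 to 0.270). The list's median was -0.27 log2, beside -0.02 over all varying probe sets.

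Control 1, the liver with the highest Gsta3, was also the highest of the 12 arrays for many genes of these lists. It held the highest value for 17 of the 54 measured genes of all lists (31.5%) and for 5 of the 14 measured transferases, against 13.9% of all varying probe sets. Akr7a3 read 13.75 log2 there, with 10.56 as the next highest array, Gclc 11.39 with 10.24 next, Ephx1 13.08 with 12.27 next, and Txnrd1 10.71 with 9.95 next. Among the transferases it was highest for Gsta3, Mgst2, Gstt3, Gsta1 and Gsto1. Control 1 was singled out after its Gsta3 value was seen, and these counts are a description of 1 rat.

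**Figure D4:**
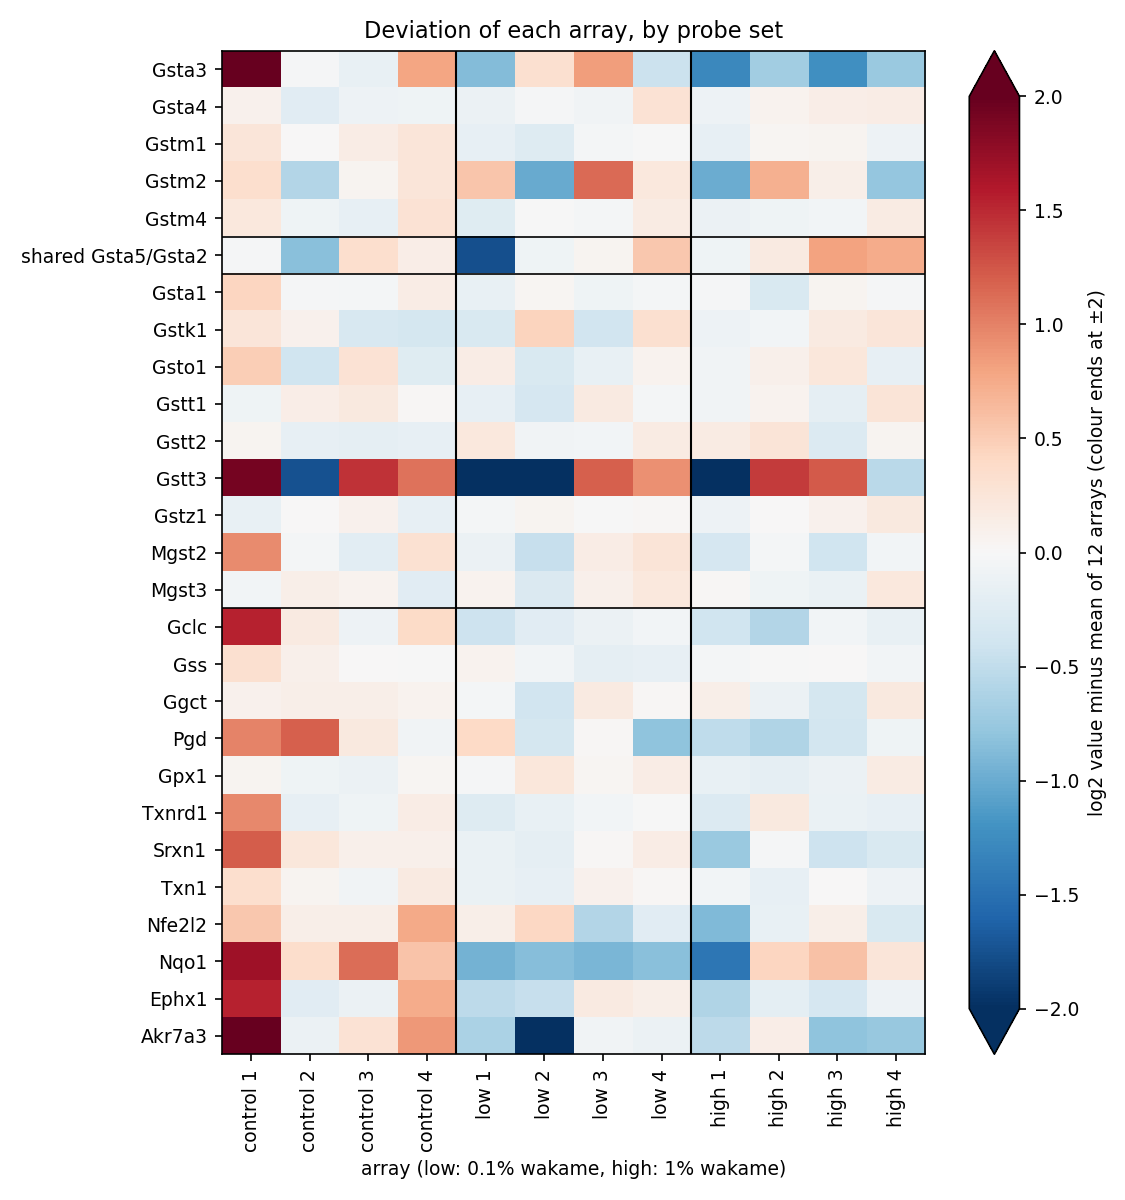
Log2 value of each array minus the mean of the 12 arrays (red higher, blue lower, colour ends at 2 log2 either way) for the 5 measured genes, the shared Gsta5 and Gsta2 probe set, 9 other transferases and, under the lowest line, named genes of glutathione metabolism and the NRF2 system. Control 1 stands out in Gsta3, Gclc, Ephx1 and Akr7a3, and Gstt3 splits the arrays of every diet.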

How the data were processed

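Per the labels' protocols, 100 ng of total liver RNA was labelled with a kit for Affymetrix arrays. The authors deposited 1 table of log2 values for 31099 probe sets, the log2 scale being inferred from their range of 3.15 to 14.61. The submitters' processing notes name R 2.7.2, while its background correction, normalization and summarisation steps are not given here. No depth exists for arrays, and their number limits the precision.

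The 57 control probe sets were left out. The rest with an SD over 0.01 log2 were fitted with limma 3.58.1 in R 4.3.3, with 1 mean per diet, all 12 arrays and a variance trend, and p-values were adjusted over all 3240. The fit was tested on simulated data with the spread of these probe sets, for high against control. It called 38% of added differences of 0.5 log2, 93% of those of 2 log2 and 0.197% of unchanged probe sets. A gene that did not pass may therefore still differ. Single genes were also tested by exact permutation, and correlations with 100000 permutations (scipy 1.17.1).

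All 9 genes are named, with every measured other transferase. Of each further list the text names up to 4 genes with the smallest p for high against control, plus any that passed. The members and lists were chosen with earlier results of these data known. Alternatives changed the flat and dim filters, the variance model, the scaling, the arrays, the replicate block, the probe sets per gene and an RNA quality covariate.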

Additional observations from a re-analysis of the deposited data

Results flagged for a closer look

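In 108 sets of 4 arrays (36 named probe sets in 3 diets), 4 arrays stood far from the rest of their diet, where chance flags about 1 set in 20. Control 1 read 9.16 log2 for Srxn1, with the other control livers from 8.05 to 8.18, and 9.86 for Gstt2, with the others from 9.63 to 9.66. High 1 read 7.51 for Nqo1, with the other high livers from 9.19 to 9.53. Control 4 read 12.23 for Onecut1, with the others from 10.91 to 11.07. The value of Gsta3 in control 1 was not among them, since the other 3 control livers themselves differ.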

How the results depend on the processing

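Alternative fits were read once for each comparison, so a fit can count several times. The count of called members was 0 in all 83 of these readings (limma, lowest adjusted p = 0.115, for high against control without control 3). With the replicate number as a block it was also 0, and Gsta3, high against control, was -2.01 log2 (limma adjusted p = 0.277). The arrays share only a number: deviations of same-numbered arrays correlated at -0.12 to 0.09 in 12 pairs, and in 2 of the 12 pairs was that coefficient the highest for the array. The Gsta3 difference between high and control kept its direction in 20 of 20 alternatives, from -2.39 to -1.20 with an array left out, with adjusted p from 0.115 to 0.620 and an unadjusted p under 0.05 in 19. The exception was the Gapdh covariate. Gstm1, low against control, kept its direction and an unadjusted p under 0.05 in 20 of 20 (adjusted p from 0.198 to 0.622). Small differences changed sign. Gstm4, high against control, was 0.00422 with the Gapdh covariate. With an array left out, Gsta4, high against low, ran from -0.00513 to 0.13, Gstm4, high against low, from -0.0647 to 0.0733, Gstm2, high against control, from -0.56 to 0.00170, and Gstm2, low against control, from -0.10 to 0.62. The correlation of Gsta3 with Gsta4, -0.00247 over 12 arrays, was 0.41 with diet means taken out, and that of Gsta3 with Gstm2, 0.27, was -0.0255 without control 1 and low 3. Without control 1, a choice made after seeing the data, the high minus control medians of the other transferases and of conjugate export were 0.02 and 0.03 log2, and Gsto1 (0.14) and Acy1 (0.03) changed sign among the named genes in that comparison. The causes were not tested.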

Other observations

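Gstp3, a pi-class gene in neither list, was added after its values were seen. It read 10.35, 10.69, 11.98 and 11.41 log2 in control livers, 10.49, 12.36, 11.20 and 12.03 in low livers, and 10.54, 11.17, 11.99 and 10.47 in high livers. The diets overlapped, and the high minus control difference was -0.06 ± 0.50 log2 (SE, limma adjusted p = 0.968). Of 56 varying probe sets whose highest array stood more than 1 log2 above the next, 12 had control 1 as that array, and 4 of these were Akr7a3, Gsta3, Gclc and Aldh1a1.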
